A study of Bos taurus with 3 samples.

Results

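The miR-10, miR-99/100 and miR-125 superfamily was described in small RNA from large dense-core vesicles of bovine chromaffin cells. Members were taken by name. Every row of the count table whose mature miRNA carried the base name miR-10a, miR-10b, miR-99a, miR-99b, miR-100, miR-125a or miR-125b was kept, whichever arm it came from. This gave 9 rows for 8 mature miRNAs on 8 hairpins, out of 919 rows and 793 mature miRNAs in all, and all 8 had at least 10 counts in a library. Chromaffin cells of the adrenal medulla secrete adrenaline and noradrenaline, which they keep together with peptides in large dense-core vesicles until release. The series held 1 library labelled biological replicate and 2 labelled technical replicates, all of vesicles purified from the adrenal medulla of slaughtered cattle, with no treatment in the labels. The labels gave no strain, age or sex of the animals, not how many were pooled, and did not name the step at which the technical replicates were split. The technical pair was averaged and counted as 1 preparation, so each mean ± SD was taken over n = 2 preparations.

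The biological replicate held 6708654 counts, and technical replicates 1 and 2 held 5546771 and 6251664, after each named mature miRNA was counted once. Names with identical results, such as miR-339a and miR-339b, all stayed in these totals, so some reads may be counted under more than 1 name. A count of 0 would allow up to 3 counts, between 0.447 and 0.541 CPM (each count divided by the total of its library and brought to a common scale). These limits, and all intervals below, hold for counting error alone. The endocrine markers, miR-375 with miR-7, took 47.3% of the counts in the biological replicate and 44.1% and 42.8% in technical replicates 1 and 2. The higher share was not common to both markers. In the edgeR fit described below, the log2 fold change over the technical pair was 0.35 for miR-375 and -0.016 for miR-7. No library of whole chromaffin cells was analysed here, so nothing can be said of enrichment over the cell, or of whether a miRNA lay inside the vesicles.

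The superfamily is among the most ancient groups of animal miRNAs. miR-10a and miR-10b are encoded within the HOX gene clusters, which pattern the body axis, and share a seed, the stretch near the 5′ end that pairs with target mRNAs. miR-99a, miR-99b and miR-100 share a seed of their own and are known in human and mouse cells as repressors of the growth kinase mTOR. miR-125a and miR-125b are the vertebrate relatives of worm lin-4, the founding miRNA, and miR-125b is known from differentiating neurons. Genes of the miR-99/100 and miR-125 groups lie beside let-7 genes in mammals, where let-7 and miR-125 both act on the pluripotency factor LIN28.

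The RefSeq gene table of assembly ARS-UCD2.0, used here only for names and neighbours, held all 8 member hairpins. MIR99A and MIR125B-2 flanked MIRLET7C, MIR100 and MIR125B-1 flanked MIRLET7A-2, and MIR99B and MIR125A flanked MIRLET7E. MIR10A lay within HOXB3 and next to HOXB4, and MIR10B lay within HOXD4 and next to HOXD8. Each member hairpin other than those of miR-10a and miR-10b thus had a let-7 gene as its immediate neighbour.

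The superfamily held 7.93% ± 0.172 of all mature miRNA counts (SD, n = 2). Its share was 7.81% in the biological replicate (exact Clopper-Pearson 95% interval 7.79 to 7.83%). It was 8.06% in technical replicate 1 (8.03 to 8.08%) and 8.05% in technical replicate 2 (8.03 to 8.07%). The technical libraries lay closer to each other than to the biological replicate, by a margin larger than counting error. With miR-375, the most abundant miRNA, taken out of the total, the share was 13.4% in the biological replicate and 13.0% and 12.5% in technical replicates 1 and 2, so the biological replicate then stood highest and not lowest.

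miR-125 was the largest of the 3 subfamilies and held 51.7% ± 1.22 of the superfamily's counts, followed by miR-10 with 26.8% ± 1.47 and miR-99/100 with 21.5% ± 0.250 (SD, n = 2). The miR-125 part was 50.8% in the biological replicate and 54.0% and 51.2% in technical replicates 1 and 2. The miR-10 part was 27.9% in the biological replicate and 24.0% and 27.6% in technical replicates 1 and 2. For both of these subfamilies technical replicate 2 lay nearer to the biological replicate than to its technical partner. The miR-99/100 part was 21.3% in the biological replicate and 22.0% and 21.3% in technical replicates 1 and 2. Here too technical replicate 2 lay nearer to the biological replicate.

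**Figure D1:**
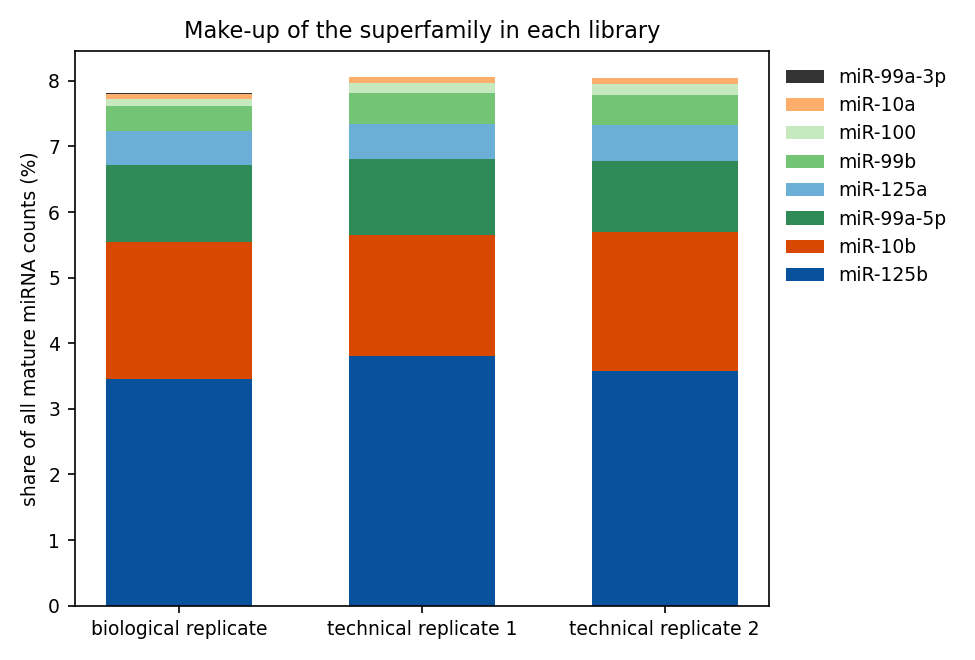
Stacked bars give the share of all mature miRNA counts (%, y axis) held by each of the 8 mature miRNAs in the biological replicate and in technical replicates 1 and 2 (x axis). The stacks end at 7.81%, 8.06% and 8.05%, and miR-125b and miR-10b fill most of each.

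The order of the 8 mature miRNAs by CPM was the same in all 3 libraries, with miR-125b first, then miR-10b, miR-99a-5p, miR-125a, miR-99b, miR-100, miR-10a and miR-99a-3p. For no pair of neighbours in this order did the CPM ranges over the 3 libraries overlap. The closest pair was miR-125a over miR-99b, with a ratio of mean CPM of 1.25, and miR-100 exceeded miR-10a 1.41-fold. The gap between miR-100 and miR-10a, 371.8 CPM, was little more than the SD of miR-100 (301 CPM, n = 2). Counts of different miRNAs were set side by side without length scaling, since mature miRNAs are of similar length, and differences in how well each is captured in a library were not tested.

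**Figure D2:**
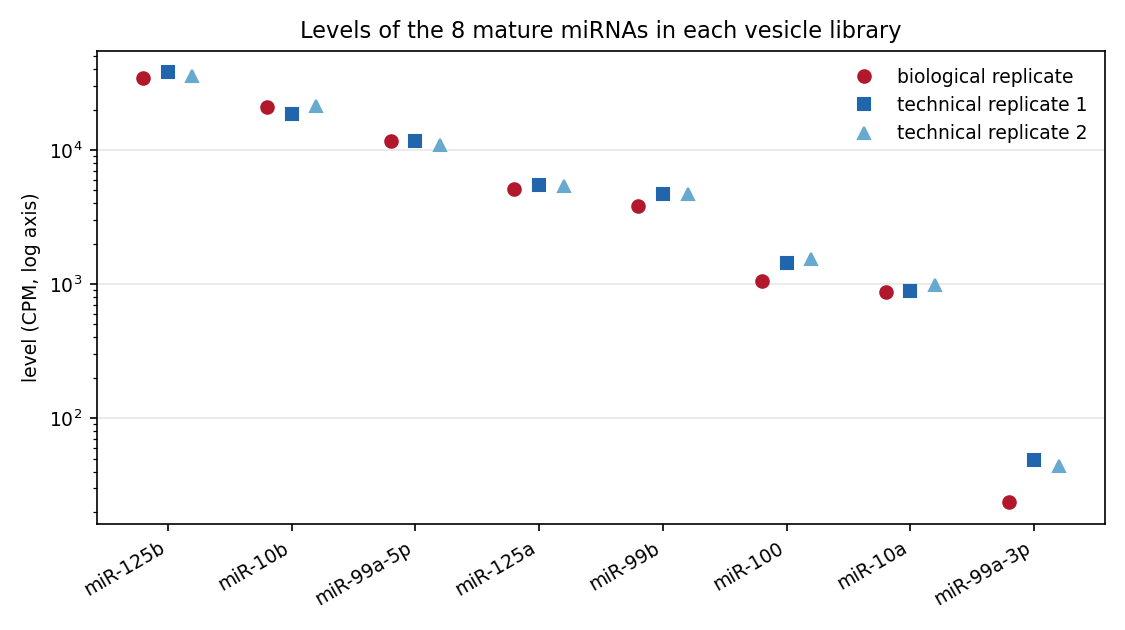
Points give the level of each mature miRNA (x axis, ordered by mean level) in CPM on a log axis (y axis), with 1 point for the biological replicate and 1 for each technical replicate. Levels span from 38029 CPM for miR-125b in technical replicate 1 to 23.6 CPM for miR-99a-3p in the biological replicate, and the order of the members is the same in every library.

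miR-125b (MIMAT0003539) had 34561 CPM in the biological replicate and 38029 and 35783 CPM in technical replicates 1 and 2. It was the 5th most abundant miRNA in each library and made up 45.0% ± 1.11 of the superfamily (SD, n = 2). The biological replicate was lowest in CPM, yet technical replicate 2 lay closer to it than to technical replicate 1. The miRNA is encoded by the hairpins mir-125b-1 and mir-125b-2, and the table holds a row for each. These rows differed by 120 counts in the biological replicate and by 66 and 46 counts in technical replicates 1 and 2, at most 0.0518% of the larger row, as they would if nearly all reads were counted at both hairpins. The output of the hairpin beside miR-99a could therefore not be told apart from that of the hairpin beside miR-100.

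miR-125a (MIMAT0003538), which shares the seed of miR-125b, had 5146 CPM in the biological replicate and 5447 and 5406 CPM in technical replicates 1 and 2, and was the 26th most abundant miRNA in each library. The ratio of miR-125b to miR-125a does not depend on how libraries are scaled. It was 6.72 in the biological replicate and 6.98 and 6.62 in technical replicates 1 and 2. The biological replicate lay between the technical libraries, so the balance of these paralogs differed no more between preparations than within the technical pair.

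miR-10b (MIMAT0003839) had 20889.6 CPM in the biological replicate and 18439.7 and 21200.3 CPM in technical replicates 1 and 2. It was the only member whose biological value lay inside the range of the technical pair. Its technical libraries differed by 0.20 on the log2 CPM scale, the widest gap among the 7 members that averaged 100 CPM or more. Its paralog miR-10a (MIMAT0003786) was far scarcer, with 868 CPM in the biological replicate and 892 and 986 CPM in technical replicates 1 and 2. Reads of miR-10b outnumbered those of miR-10a 24.1-fold in the biological replicate and 20.7-fold and 21.5-fold in technical replicates 1 and 2. The miR-10 seed in these preparations thus came almost wholly from the member encoded in the HOXD cluster, although the paralogs are known to differ little in sequence and the split of reads between them is uncertain to that extent.

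miR-99a-5p (MIMAT0003537) was the leading member of its subfamily, with 11726 CPM in the biological replicate and 11585 and 10859.7 CPM in technical replicates 1 and 2. It was the only member whose CPM was higher in the biological replicate than in both technical libraries. miR-99b (MIMAT0004345) had 3817 CPM in the biological replicate and 4679.8 and 4669 CPM in technical replicates 1 and 2, values that agreed closely within the technical pair and were lower in the biological replicate. miR-100 (MIMAT0009215) had 1063 CPM in the biological replicate and 1443 and 1533 CPM in technical replicates 1 and 2, and was lower in the biological replicate by more than the gap within the pair.

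Within the subfamily of shared seed the balance stood further toward miR-99a-5p in the biological replicate. The ratio of miR-99a-5p to miR-100 was 11.0 in the biological replicate and 8.03 and 7.08 in technical replicates 1 and 2. The ratio of miR-99a-5p to miR-99b was 3.07 in the biological replicate and 2.48 and 2.33 in the technical libraries. Both ratios lay farther from the nearest technical library than the technical libraries lay from each other. The sequences of miR-99a, miR-99b and miR-100 are known to resemble each other closely, which makes the division of reads among them uncertain. These ratios are given as values and no test was made of them.

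miR-99a was the member with counts for both arms of its hairpin. miR-99a-3p (MIMAT0012533), the minor arm, had 158 counts in the biological replicate and 272 and 277 counts in technical replicates 1 and 2, or 23.6 CPM against 49.0 and 44.3 CPM. Its share of the miR-99a counts was 0.200% in the biological replicate (exact 95% interval 0.170 to 0.234%). It was 0.422% in technical replicate 1 (0.373 to 0.475%) and 0.406% in technical replicate 2 (0.360 to 0.457%). The intervals of the technical libraries overlapped, and that of the biological replicate lay below both. For each 3p read there were 498 reads of the 5p arm in the biological replicate and 236 and 245 in technical replicates 1 and 2.

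A lower share of the minor arm in the biological replicate was not particular to miR-99a. The same ratio was taken for the 28 hairpin names with at least 10 counts for each arm and 100 in all in every library. In 17 of these the minor arm's share was lower in the biological replicate than in both technical libraries, and in 8 it was higher than in both. The median log2 change of minor over major arm was -0.28, and that of miR-99a was -1.05, the 3rd lowest of the 28 in a range from -1.32 for miR-193a to 1.01 for miR-27a.

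**Figure D3:**
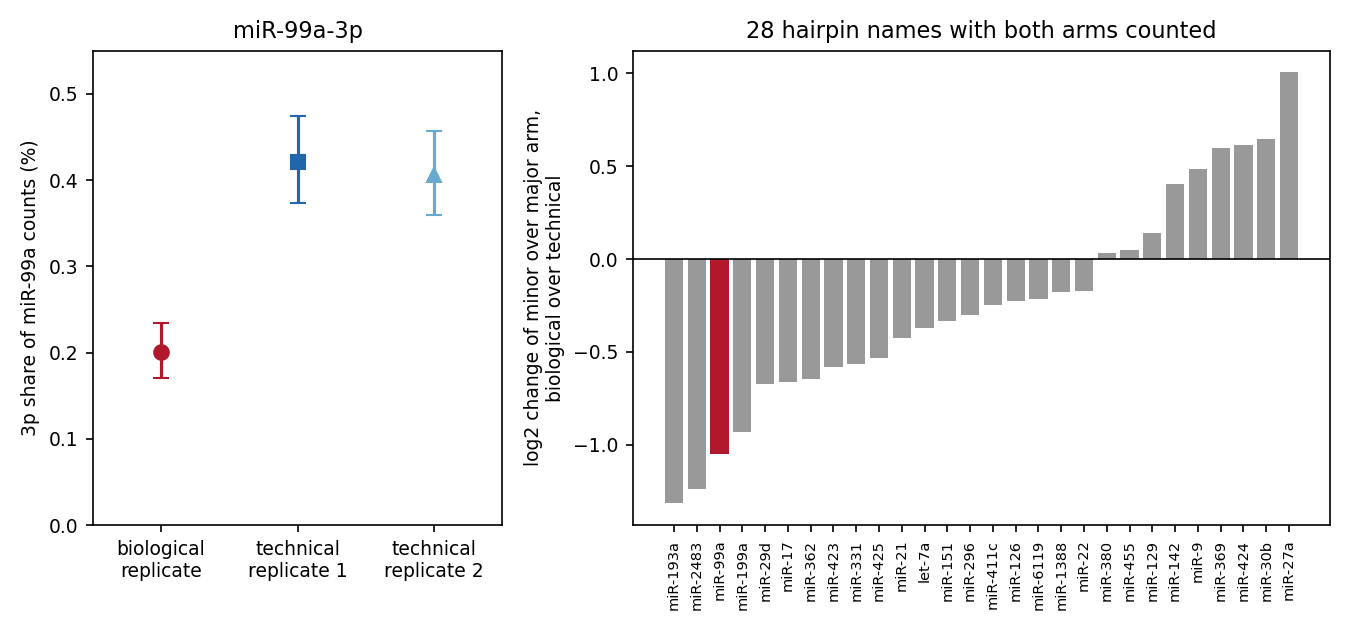
The left panel gives the 3p share of miR-99a counts (%, y axis) in each library, with bars for exact 95% intervals, and the biological replicate at 0.200% lies below the technical libraries at 0.422% and 0.406%. The right panel gives, for 28 hairpin names (x axis), the log2 change of the minor over the major arm between the biological replicate and the mean of the technical pair, with miR-99a in red at -1.05.

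The biological replicate was then compared with the technical pair across all miRNAs. The biological group is 1 library and the technical pair 1 preparation. With 1 residual degree of freedom, only the technical libraries inform the spread. A call therefore says that a difference between these libraries exceeded technical spread, and it cannot show how preparations or animals differ in general. The test was edgeR's quasi-likelihood test on counts with TMM scaling, for the 367 miRNAs that reached 10 counts in a library. Of the 8 members, 2 passed a Benjamini-Hochberg adjusted p of 0.05 in this sense, and both were lower in the biological replicate. Over all miRNAs tested, 37.9% passed in either direction, 17.7% as higher and 20.2% as lower. Counted in either direction, though not as lower alone, the members were called no more often than the whole set. The median log2 fold change was 0.077 over the members and 0.013 over all miRNAs tested.

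miR-99a-3p had a log2 fold change of -0.80 ± 0.17 (SE) and an edgeR adjusted p of 3.19e-05 against technical spread. miR-100 had a log2 fold change of -0.30 ± 0.096 (SE) and an edgeR adjusted p of 0.00628 against the same spread. With library totals in place of TMM the log2 fold change of miR-100 was -0.49, more than 1.5 times as large, and still passed. Both passed under every edgeR and DESeq2 alternative that fitted them. A fit limited to miRNAs averaging 100 CPM or more left out miR-99a-3p.

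The other 6 members did not pass. miR-10b and miR-99a-5p had log2 fold changes of 0.26 ± 0.12 and 0.24 ± 0.11 (SE), with adjusted p-values of 0.085 and 0.074 in edgeR's quasi-likelihood test. With library totals these fold changes were 0.076 and 0.063. Against technical replicates 1 and 2 taken alone, with no test, they were 0.32 and 0.18 for miR-10b and 0.16 and 0.31 for miR-99a-5p. miR-125a, miR-125b and miR-10a lay near 0, at 0.10, 0.086 and 0.069, and their signs were negative with library totals. miR-99b, at -0.11, did not pass (edgeR, adjusted p = 0.43). It passed as lower with library totals (-0.29, edgeR adjusted p = 0.044) and in a fit restricted to miRNAs averaging 100 CPM or more (-0.26, edgeR adjusted p = 0.026). In these fits 23.4% and 26.3% of the miRNAs tested were called lower.

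The sign of small differences turned on the scaling. TMM raised the log2 fold changes by 0.18 against library totals. On library totals, the CPM of 6 of the 8 members was lower in the biological replicate than in both technical libraries and that of 1 was higher, against 59.1% and 24.5% of all miRNAs tested. With library totals in the test, the median log2 fold change was -0.10 over the members and -0.17 over all miRNAs tested.

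The let-7 neighbours of the superfamily were set beside its members in each of the 3 genomic clusters. In the cluster of miR-99a, let-7c and mir-125b-2, let-7c had 1630.4 CPM in the biological replicate and 1684 and 1624 CPM in technical replicates 1 and 2. Its log2 fold change of 0.16 ± 0.095 (SE) did not pass (edgeR, adjusted p = 0.18), as was the case for miR-99a-5p and miR-125b. The exception in this cluster was the minor arm miR-99a-3p, with a log2 fold change of -0.80 ± 0.17 (SE). The ratio of miR-99a-5p to let-7c was 7.19 in the biological replicate and 6.88 and 6.69 in technical replicates 1 and 2. That of miR-125b to let-7c was 21.2 in the biological replicate and 22.6 and 22.03 in the technical libraries. Both ratios lay outside the technical pair by more than the gap within it.

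In the cluster of miR-99b, let-7e and miR-125a, let-7e had 1315 CPM in the biological replicate and 1074 and 1152 CPM in technical replicates 1 and 2. In CPM the biological replicate was highest for let-7e and lowest for miR-99b and miR-125a, the members on either side of it. The log2 fold change with TMM was 0.42 ± 0.094 (SE) for let-7e, -0.11 for miR-99b and 0.10 for miR-125a. The ratio of miR-99b to let-7e was 2.90 in the biological replicate and 4.36 and 4.05 in technical replicates 1 and 2. The ratio of miR-125a to let-7e was 3.91 in the biological replicate and 5.07 and 4.69 in the technical libraries. Both ratios were lower in the biological replicate by more than the gap within the technical pair.

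In the cluster of miR-100, let-7a-2 and mir-125b-1, let-7a-5p had 4053 CPM in the biological replicate and 3285 and 3428 CPM in technical replicates 1 and 2. In CPM the biological replicate was highest for let-7a-5p and lowest for miR-100. The log2 fold change of let-7a-5p with TMM was 0.45 ± 0.097 (SE). There were 0.262 reads of miR-100 for each of let-7a-5p in the biological replicate and 0.439 and 0.447 in technical replicates 1 and 2. let-7a-5p is encoded by several hairpins whose rows hold nearly the same counts, so its level is not that of let-7a-2 alone. let-7e and let-7a-5p passed the edgeR threshold with TMM and did not pass it with library totals, where their log2 fold changes were 0.24 and 0.27 and the edgeR adjusted p-values 0.11 and 0.056. The difference between a let-7 miRNA and its neighbours was not itself tested. The minor arm let-7a-3p had 23.0 CPM in the biological replicate and 22.0 and 27.2 CPM in technical replicates 1 and 2 and did not pass (edgeR, adjusted p = 0.81).

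**Figure D4:**
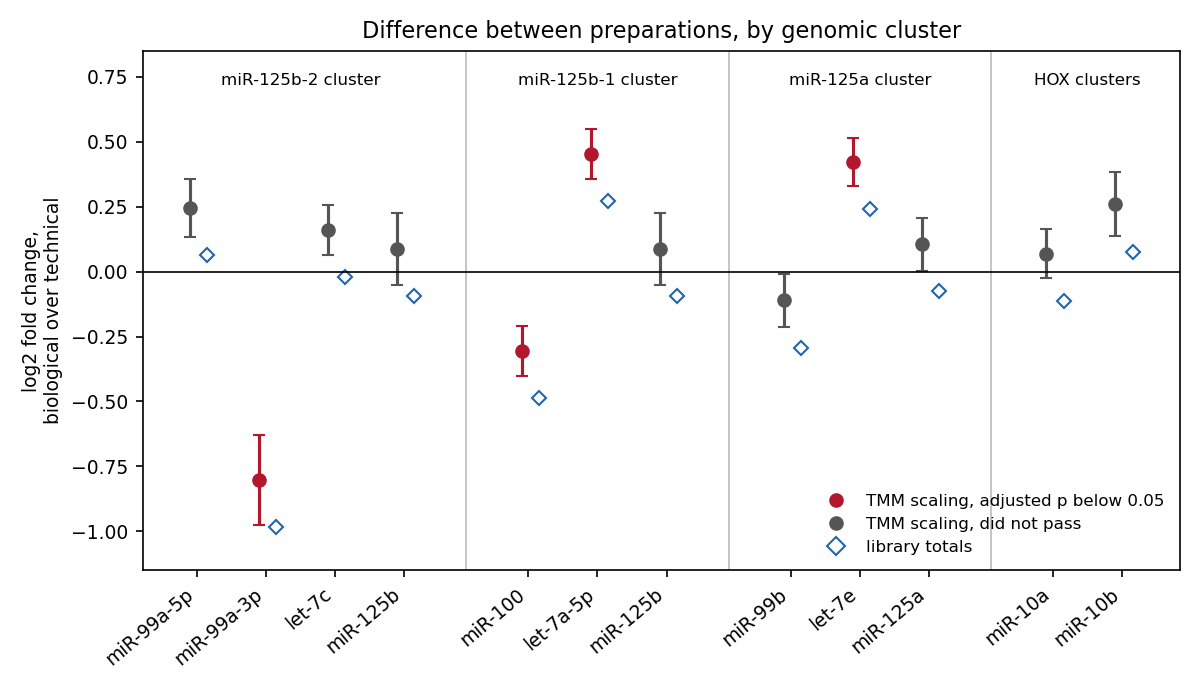
Filled points give the log2 fold change of the biological replicate over the technical pair (y axis) from the edgeR fit with TMM scaling, with bars for 1 SE, and open diamonds give the value with library totals, for the members and their let-7 neighbours grouped by genomic cluster (x axis, miR-125b in both of its clusters). Red points passed an adjusted p of 0.05 against the spread of the technical pair, with miR-99a-3p at -0.80 and miR-100 at -0.30 below 0 and let-7a-5p at 0.45 and let-7e at 0.42 above it.

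Markers of other cell types also differed in level between the same libraries. The 7 mature miRNAs of the smooth muscle and fibroblast list (miR-143, miR-145, the miR-199 group and miR-214) all had counts in every library. Together they held 1.22% of the counts in the biological replicate and 1.98% and 2.19% in technical replicates 1 and 2, with reads of miR-199a-3p counted again under miR-199c. The endothelial miR-126 arms held 0.113% in the biological replicate and 0.182% and 0.189% in technical replicates 1 and 2. All 6 of the leukocyte list had counts in each library, at 0.0123% in the biological replicate and 0.0281% and 0.0280% in the technical libraries. Other lists were higher in sum in the biological replicate, though not in each of their members. The erythrocyte list held 0.110% there and 0.0898% and 0.0837% in technical replicates 1 and 2. With TMM the log2 fold change was 0.53 for its miR-486 but -0.19 for its miR-451. The striated muscle list held 0.0883% in the biological replicate and 0.0676% and 0.0655% in the technical libraries. Its log2 fold changes were 0.41 for miR-1, 0.63 for miR-499, 0.11 for miR-133a and -0.32 for miR-133b. Of the 7 mature miRNAs of that list, 5 had counts in the biological replicate and 4 and 5 in technical replicates 1 and 2. miR-100 and miR-99a-3p were lower in the library where the smooth muscle and fibroblast, endothelial and leukocyte lists were lower, and the part of other cell types in their difference was not tested. In such bulk preparations, less material from a cell type and less of a miRNA per cell or vesicle cannot be told apart.

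The miRNAs outside the superfamily whose pattern over the 3 libraries was most like that of its summed CPM were miR-16a, miR-20a and miR-139. They lay at Euclidean distances of 0.0196, 0.0204 and 0.0324 between centred log2(CPM + 1) values and were the nearest of 160 miRNAs that averaged 100 CPM or more. miR-16a had 818 CPM in the biological replicate and 828 and 837 CPM in technical replicates 1 and 2. With 3 libraries this describes their flat profile.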

How the data were processed

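Small RNA from vesicle preparations was extracted with a column kit and made into NEBNext small RNA libraries, per the labels' protocols. The deposited table holds raw read counts by the authors and the same values as CPM, equal to count over column total within rounding. A second deposited table holds log2 values, log2(CPM + 0.1) over its 459 rows when tested on the file, and served as an alternative. The submitters' processing notes name build UMD3.1 and the package edgeR without saying how either was applied. Which aligner, counter and miRBase version served is not given in the sources used here. Where a mature miRNA had several hairpin rows, the highest row stood for it, and CPM were recomputed over the rows so chosen.

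The test of the biological replicate against the technical pair used edgeR 4.0.16 in R 4.3.3 (TMM, quasi-likelihood test, Benjamini-Hochberg over 367 miRNAs), with SE derived from fold and F. The fit was checked on simulated counts drawn at the technical spread. These hold no spread between preparations, so the check says nothing of error rates between preparations. DESeq2 1.42.0 and other scalings, filters and row treatments were alternatives. The labels do not say that the libraries came from separate animals. Each p-value sets a difference against the spread of the technical pair, pooled over miRNAs, and not against spread between animals. Named were all members, let-7a, let-7c and let-7e, marker lists and the 3 miRNAs most alike in pattern. Members and lists were chosen with earlier results of these data known. The hepatocyte miR-122 had 1 count in the biological replicate and 6 in each technical replicate.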

Additional observations from a re-analysis of the deposited data

How the results depend on the processing

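Summed over precursor rows, which counts miR-125b at both hairpins, the superfamily's share was 8.73%, and without miR-375 in the total it was 13.1%. With a library left out it lay between 7.93% and 8.05%, and the mean 3p share of miR-99a between 0.303% and 0.414%. Signs turned negative for miR-10a, miR-125a and miR-125b with library totals (-0.11, -0.076 and -0.095 on the log2 scale), in the fit restricted to 100 CPM or more (-0.079, -0.043 and -0.062) and in the authors' log2 values (-0.080, -0.045 and -0.063). These members passed in no fit. With library totals the log2 fold change was -0.29 for miR-99b, -0.49 for miR-100 and -0.98 for miR-99a-3p. In the fit restricted to 100 CPM or more, which left out miR-99a-3p, it was -0.26 for miR-99b and -0.45 for miR-100. A fit without miR-375, added after seeing the data, gave -0.13 for miR-99b, -0.32 for miR-100 and -0.82 for miR-99a-3p. Adjusted p-values over the fits ran from 2.98e-05 to 0.032 for miR-100 and from 3.31e-07 to 0.028 for miR-99a-3p. Against either technical library alone, without a test, miR-100 lay between -0.33 and -0.30, miR-99a-3p between -0.92 and -0.71 and miR-99b between -0.16 and -0.087. Between technical replicates 1 and 2 as reference, miR-99a-3p moved most of all members and miR-100 least. Against technical replicates 1 and 2, miR-125b had 0.00051 and 0.15, miR-125a 0.057 and 0.13, miR-10a 0.10 and 0.019, miR-10b 0.32 and 0.18, and miR-99a-5p 0.16 and 0.31. With a library left out no test can be made, since 2 libraries leave no residual degrees of freedom. No paired analysis was possible, since the labels give no pairing and the biological group is 1 library.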

Other observations

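The technical pair did not vary evenly across the superfamily. Among the 167 miRNAs that averaged 100 CPM or more, the median absolute log2 ratio between technical replicates was 0.091. miR-10b, at 0.20, was exceeded by 22 of these miRNAs and miR-10a, at 0.15, by 42. miR-99b and miR-125a, at 0.0033 and 0.011, were exceeded by 161 and 156. The ratio of miR-125b to miR-10b, the most abundant members, was 1.65 in the biological replicate and 2.06 and 1.69 in technical replicates 1 and 2, so technical replicate 1 stood apart for this ratio and not the biological replicate.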
